A study of Homo sapiens with 4 samples.

Results

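BASP1, GAP43, MARCKS, MARCKSL1, RTN3, RTN4, STMN1, DPYSL2 and DPYSL3 are 9 genes for growth cone, reticulon and microtubule proteins, here followed in Daoy, a human cell line established from a medulloblastoma. They were matched by gene name and make up 9 of the 59384 gene names with readable counts. The group was put together with their measured values known, from the contrast of shFABP4 with pLKO, so their differences between these groups are a description; where a fit over all genes also covers them, its values for them support nothing. RNA was sequenced from 2 libraries of cells infected with the pLKO control virus (pLKO 1 and 2, genotype given as WT) and 2 of cells infected with a virus for a short hairpin against FABP4, a fatty acid binding protein (shFABP4 1 and 2, genotype given as FABP4 knockdown). All 4 libraries come from the same line and all were infected with a virus. The labels give no hairpin sequence and no time after infection, and they do not say whether the numbered libraries are separate cultures, so the spread within a group may be technical.

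The growth cone is the motile tip of a growing axon. BASP1, GAP43, MARCKS and MARCKSL1 are acidic proteins anchored in the inner face of the plasma membrane by fatty acyl chains; they bind calmodulin or phosphoinositides, are substrates of protein kinase C and regulate cortical actin. Reticulons such as RTN3 and RTN4 bend the endoplasmic reticulum into tubules, and RTN4, also called Nogo, is known as a myelin inhibitor of axon growth through its receptors. STMN1 (stathmin) binds tubulin dimers and destabilises microtubules, while the collapsin response mediators DPYSL2 (CRMP2) and DPYSL3 (CRMP4) bind tubulin or actin and carry semaphorin signals in the growth cone.

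The libraries differed in depth and makeup. They held 8988961 (pLKO 1), 13839885 (pLKO 2), 2539862 (shFABP4 1) and 20431660 (shFABP4 2) counted fragments. In shFABP4 1, although the shallowest, 51762 gene names held a fragment, against 22350 to 25560 elsewhere. From 2656 coding genes with no fragment elsewhere, background was put at 54.6% of shFABP4 1 and at 3.81 to 18.9 fragments per kb, rising with GC content. FABP4 itself had 1, 6, 14 and 0 fragments in pLKO 1, pLKO 2, shFABP4 1 and shFABP4 2. Background predicted 5.21 in shFABP4 1. The label of shFABP4 1 would imply a lower count than in pLKO, which was not seen. With so few fragments in pLKO, these counts neither bear out nor refute a knockdown in either shFABP4 library. Of the 8 neural progenitor and medulloblastoma markers, VIM was abundant (13811, 21475, 2830 and 131016 fragments). NES (35, 69, 171 and 180 fragments), GLI1 (49, 72, 123 and 479) and SOX9 were counted in every library. Background predicted 90.3 NES and 73.9 GLI1 fragments in shFABP4 1. SOX2 had 0, 2, 5 and 0 fragments, and OTX2, ATOH1 and OLIG2 were at 0 in all libraries but shFABP4 1. The 5 neuron markers summed to 16.6 and 19.3 CPM (fragments scaled to the library total) in pLKO and 29.02 in shFABP4 2. In shFABP4 1 they summed to 361 CPM (917 fragments, 466 expected from background), with 559 fragments from RBFOX3 (160 expected). None of the 5 was at 0 in any library. The 2 glia markers summed to 14.2 and 13.7 CPM in pLKO, 174 in shFABP4 1 (441 fragments, 381 expected) and 55.5 in shFABP4 2. The 3 fibroblast markers summed to 4.78 and 3.97 CPM in pLKO, 271 in shFABP4 1 (688 fragments, 274 expected) and 50.6 in shFABP4 2. COL1A1 gave 585 of the 688 fragments in shFABP4 1 (170 expected) and 1033 of 1034 in shFABP4 2. The part of these marker levels in the values below was not tested. In bulk RNA, fewer cells that express a gene and less of its RNA per cell cannot be told apart.

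BASP1 carried the widest difference of the 9 genes in the deeper shFABP4 library. It was counted 1194 and 1866 times in pLKO 1 and 2, 489 times in shFABP4 1 and 36307 times in shFABP4 2. Scaled to the library total this was 133 and 135 CPM in pLKO, 193 (95% Poisson interval 176 to 210) in shFABP4 1 and 1777 (1759 to 1795) in shFABP4 2; these intervals cover counting error only. Both shFABP4 libraries lay above both pLKO libraries on this scale, shFABP4 2 by 13.3-fold over the pLKO mean and shFABP4 1 by 1.44-fold. Per length, BASP1 stood at 62.4 ± 0.658 FPKM (CPM divided by kb of exon; SD, n = 2) in pLKO, rank 836 of 18969 coding genes, and at 828 FPKM in shFABP4 2, rank 50. Its gene lies on chromosome 5 from 17065598 to 17276843 (GRCh38, plus strand) with 2146 bases of merged exons. BASP1-AS1, an antisense gene that shares 75 exon bases with it, had 3, 8, 103 and 9 fragments. The 103 of shFABP4 1 were fewer than the 128 expected from background. Reads of the 2 genes cannot be separated without strand where they overlap.

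GAP43, a protein kinase C substrate and the classical marker of the growth cone, was near the detection limit. It was counted 10 and 24 times in pLKO, 8 times in shFABP4 1 and 75 times in shFABP4 2. As CPM these were 1.11 (0.533 to 2.05), 1.73 (1.11 to 2.58), 3.15 (1.36 to 6.21) and 3.67 (2.89 to 4.60). shFABP4 2 lay above both pLKO libraries by 2.58-fold over their mean, and its interval did not touch theirs. In shFABP4 1 the 8 fragments were fewer than the 14.7 expected from background, so no GAP43 level above background was seen there. GAP43 lies on chromosome 3 from 115623510 to 115721490 (plus strand).

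MARCKS and MARCKSL1, 2 relatives that share an effector domain binding calmodulin and actin, took opposite sides in shFABP4 2. MARCKS had 32.9 and 33.9 CPM in pLKO, 24.0 in shFABP4 1 and 66.4 in shFABP4 2, from 296, 469, 61 and 1356 fragments. MARCKSL1 had 19.8 and 19.7 CPM in pLKO, 10.6 in shFABP4 1 and 14.2 in shFABP4 2, from 178, 273, 27 and 291 fragments. MARCKS was thus 1.99-fold the pLKO mean in shFABP4 2 and MARCKSL1 0.721-fold. By CPM both shFABP4 libraries were below both pLKO libraries for MARCKSL1, while for MARCKS they lay on either side; the 27 MARCKSL1 fragments of shFABP4 1 were close to the 25.1 expected from background. MARCKS lies on chromosome 6 (113857345 to 113863475, plus strand) and MARCKSL1 on chromosome 1 (32333839 to 32336233, minus strand).

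The promoters of these 3 lipid-anchored proteins are shown because the genes encode proteins of like function and differed in level; they were picked after the values were seen. Each line gives the 250 bases before the RefSeq transcription start, 5′ to 3′ on the gene's strand (RefSeq, GRCh38.p14): BASP1 at chr5:17216573-17216822 (plus strand), MARCKS at chr6:113857095-113857344 (plus) and MARCKSL1 at chr1:32336234-32336483 (minus). The RefSeq start of BASP1 lies inside its counted span, whose first exons are upstream. Capitals mark every match to the GC box GGGCGG or its reverse complement CCGCCC and to the CCAAT box CCAAT or its reverse complement ATTGG; overlapping matches run together.
BASP1: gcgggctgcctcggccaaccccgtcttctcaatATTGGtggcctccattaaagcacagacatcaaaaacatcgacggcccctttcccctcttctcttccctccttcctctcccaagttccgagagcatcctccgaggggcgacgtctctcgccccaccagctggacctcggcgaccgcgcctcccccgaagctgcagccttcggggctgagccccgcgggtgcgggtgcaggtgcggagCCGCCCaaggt
MARCKS: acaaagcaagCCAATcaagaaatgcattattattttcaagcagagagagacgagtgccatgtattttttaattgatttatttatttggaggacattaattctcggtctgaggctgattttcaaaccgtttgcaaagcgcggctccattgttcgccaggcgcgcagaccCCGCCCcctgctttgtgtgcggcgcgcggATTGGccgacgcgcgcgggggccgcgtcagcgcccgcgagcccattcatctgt
MARCKSL1: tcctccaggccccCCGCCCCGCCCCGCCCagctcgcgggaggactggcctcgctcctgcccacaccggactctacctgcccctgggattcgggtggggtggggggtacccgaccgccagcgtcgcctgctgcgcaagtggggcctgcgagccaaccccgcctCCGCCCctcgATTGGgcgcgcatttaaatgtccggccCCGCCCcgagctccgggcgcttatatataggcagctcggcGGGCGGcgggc
BASP1 held 1 GC box and 1 CCAAT box, MARCKS 1 and 2, and MARCKSL1 6 and 1. Over all 35116 RefSeq windows of 300 bases (250 before and 50 after a start), 44.95% held the GC box and 34.6% the CCAAT box on either strand, so both are common. Neither the TATA box TATAAA (11.5% of windows; reverse complement TTTATA) nor the E-box CACGTG (7.26%, the same on both strands) matched in these 3 sequences. The windows of 300 bases were 66.7% (BASP1), 53.0% (MARCKS) and 75.0% (MARCKSL1) GC, against a median of 58.7% over all windows. A match of letters is no evidence of a bound site, and no binding was measured here. In all, 8 of the 9 genes had a RefSeq window, with 8 starts listed for RTN4, 3 for STMN1 and 2 for DPYSL3.

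RTN4 had the next widest difference in shFABP4 2 by CPM. Its counts of 1108 and 1606 in pLKO, 407 in shFABP4 1 and 10630 in shFABP4 2 came to 123 and 116, 160 and 520 CPM. Both shFABP4 libraries lay above both pLKO libraries, by 1.34-fold and 4.35-fold over the pLKO mean. The gene spans chromosome 2 from 54972187 to 55112621 (minus strand, 6644 bases of merged exons), and counting by gene name does not separate its Nogo-A, Nogo-B and Nogo-C forms.

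RTN3, the reticulon known for binding the beta-secretase BACE1 and for clearing tubular endoplasmic reticulum by autophagy, differed less. Its values of 59.96 and 58.8 CPM in pLKO, 63.8 (54.3 to 74.4) in shFABP4 1 and 90.0 (85.9 to 94.2) in shFABP4 2 rested on 539, 814, 162 and 1838 fragments. shFABP4 2 was 1.51-fold the pLKO mean, and the interval of shFABP4 1 held both pLKO values. The gene lies on chromosome 11 from 63681446 to 63759891 (plus strand).

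STMN1 was the most counted of the 9 genes in pLKO, at 1961 and 3003 fragments, with 252 in shFABP4 1 and 7116 in shFABP4 2. In CPM it stood at 218 and 217 in pLKO, at 99.2 in shFABP4 1 and at 348 in shFABP4 2. The shFABP4 libraries therefore fell on both sides of pLKO by CPM, at 0.456-fold and 1.60-fold of its mean. STMN1 lies on chromosome 1 from 25884181 to 25906991 (minus strand). The microRNA gene MIR3917 shares 66 of its exon bases and was at 0 in all 4 libraries.

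DPYSL2 and DPYSL3, both mediators of growth cone collapse, were low in pLKO and lay on opposite sides of it in shFABP4 2. DPYSL2 had 23, 45, 68 and 127 fragments (pLKO 1, pLKO 2, shFABP4 1, shFABP4 2), which is 2.56, 3.25, 26.8 and 6.22 CPM. DPYSL3 had 64, 99, 73 and 81 fragments, which is 7.12, 7.15, 28.7 and 3.96 CPM. In shFABP4 2, DPYSL2 was 2.14-fold and DPYSL3 0.556-fold the pLKO mean, each outside the range of both pLKO libraries. The high CPM of both genes in shFABP4 1 was no more than its background predicts (77.7 fragments for DPYSL2 and 76.4 for DPYSL3). PNMA2, on the opposite strand, shares 62 exon bases with DPYSL2 and had 35, 35, 32 and 406 fragments, so some DPYSL2 fragments may belong to it. DPYSL2 lies on chromosome 8 (26514031 to 26658178, plus strand) and DPYSL3 on chromosome 5 (147390808 to 147510068, minus strand).

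**Figure D1:**
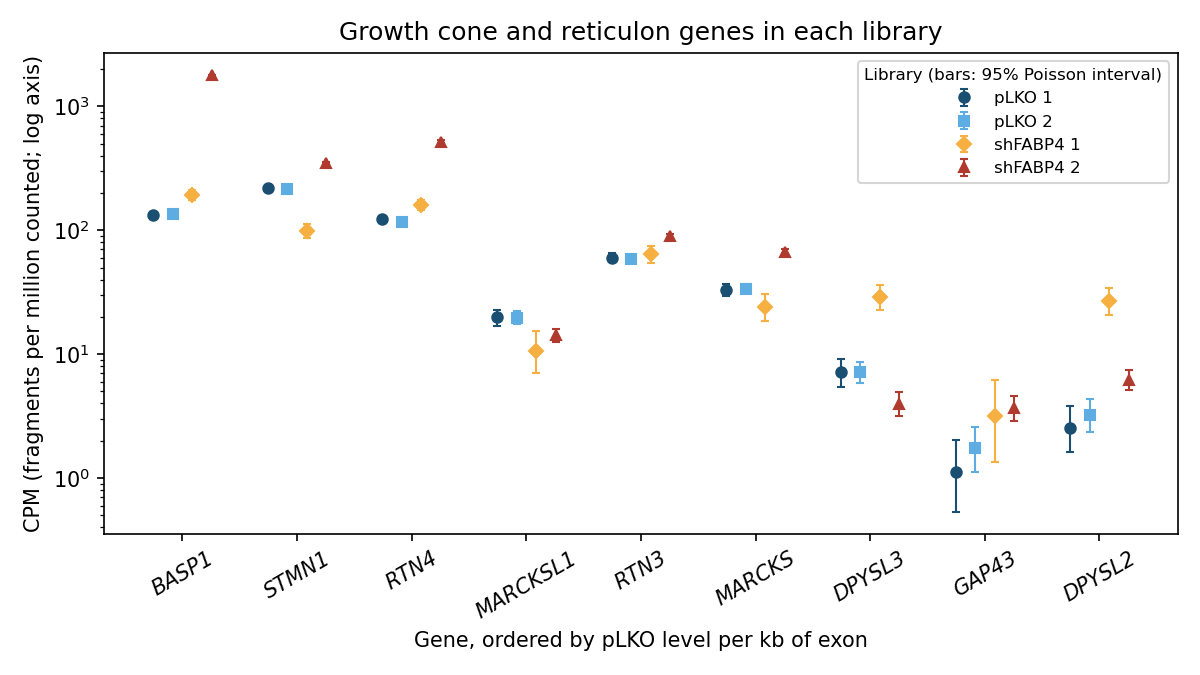
CPM (log axis) of each of the 9 genes in each of the 4 libraries, with 95% Poisson intervals that cover counting error only; genes are ordered by their pLKO level per kb. BASP1 reached 1777 CPM in shFABP4 2 against 133 and 135 in pLKO, while MARCKSL1 and DPYSL3 lay below pLKO in that library.

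Levels can be compared between genes only per length. In pLKO the order was BASP1 (62.4 FPKM), STMN1 (34.8), RTN4 (18.01), MARCKSL1 (12.8), RTN3 (10.3), MARCKS (7.78), DPYSL3 (0.994), GAP43 (0.749) and DPYSL2 (0.398), as means of 2 libraries. The counting intervals of DPYSL3 and GAP43 overlapped, as did those of GAP43 and DPYSL2, so these neighbours were not separated. Those of MARCKSL1 and RTN3 overlapped in pLKO 1 and not in pLKO 2. In shFABP4 2, RTN4 (78.3 FPKM) stood above STMN1 (55.8), RTN3 (15.5) and MARCKS (15.4) were alike within counting error, and DPYSL3 (0.552) was last. FPKM here divides by all merged exons of a gene, so a gene whose cells use a short transcript is understated.

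Among 10926 coding genes with a mean of at least 20 fragments over pLKO and shFABP4 2, the log2 CPM difference of shFABP4 2 from pLKO had a median of 0.31. BASP1 ranked 38 from the top (3.73) and RTN4 523 (2.12), followed by GAP43 at 1688 (1.36), DPYSL2 at 2452 (1.09) and MARCKS at 2795 (0.99). STMN1 (0.68) and RTN3 (0.60) lay near the middle, at ranks 3960 and 4307, and MARCKSL1 (-0.47) and DPYSL3 (-0.85) at 8401 and 9388. The filter counted shFABP4 2 and so admitted some genes by a high value there. GAP43 was one of them, with 10 and 24 fragments in pLKO and 75 in shFABP4 2, so its rank is not read. These ranks describe 1 shFABP4 library and have no replicate check.

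**Figure D2:**
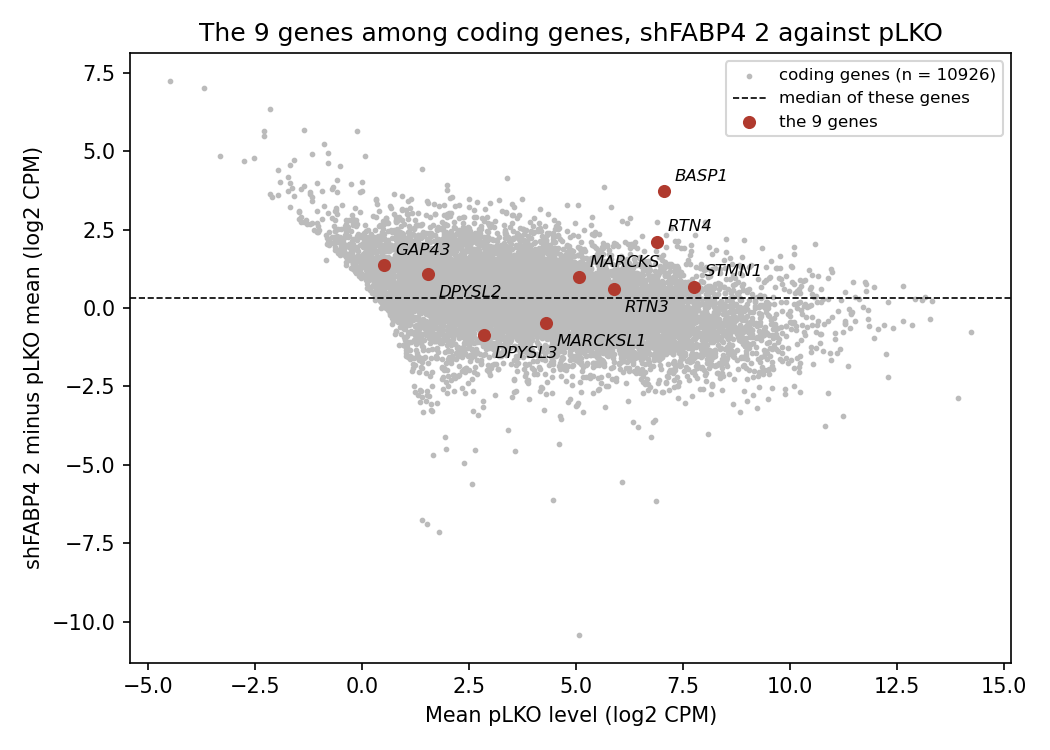
Difference of shFABP4 2 from the pLKO mean (log2 CPM) against the mean pLKO level (log2 CPM) for 10926 coding genes (grey), with the 9 genes in red and the median of 0.31 as a dashed line. BASP1 at 3.73 ranked 38 from the top and RTN4 at 2.12 ranked 523, over genes of all levels, and the other 7 genes lay lower.

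Ratios between 2 genes of the same library do not depend on scaling. The 7 ratios given were chosen after the values were seen. RTN4 to RTN3 was 2.06 and 1.97 in pLKO, 2.51 (exact 95% interval 2.09 to 3.03) in shFABP4 1 and 5.78 (5.50 to 6.08) in shFABP4 2. MARCKS to MARCKSL1 was 1.66 and 1.72, 2.26 (1.41 to 3.70) and 4.66 (4.10 to 5.31). In both pairs of relatives the ratio of shFABP4 2 was far above pLKO. The interval of RTN4 to RTN3 in shFABP4 1 overlapped those of pLKO, and MARCKS to MARCKSL1 says nothing of RNA there, since MARCKSL1 was at background.

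BASP1 fragments stood higher against those of the other genes in both shFABP4 libraries than in pLKO in most of these ratios. BASP1 to MARCKS was 4.03 and 3.98 in pLKO, 8.02 (6.13 to 10.6) in shFABP4 1 and 26.8 (25.4 to 28.3) in shFABP4 2. BASP1 to STMN1 was 0.609 and 0.621, 1.94 (1.66 to 2.27) and 5.10 (4.97 to 5.23). These ratios are of fragments, and per length BASP1 already stood above STMN1 in pLKO (62.4 against 34.8 FPKM). BASP1 to RTN3 was 2.22 and 2.29, 3.02 (2.52 to 3.63) and 19.8 (18.8 to 20.7). BASP1 to RTN4 was 1.08 and 1.16 in pLKO and 1.20 (1.05 to 1.37) in shFABP4 1, within counting error of pLKO, and 3.42 (3.34 to 3.49) in shFABP4 2. RTN4 to STMN1 was 0.565 and 0.535 in pLKO and alike in the shFABP4 libraries, at 1.62 (1.38 to 1.90) and 1.49 (1.45 to 1.54). With the expected background taken off shFABP4 1, its ratios became 2.81 (RTN4 to RTN3), 11.5 (BASP1 to MARCKS), 1.99 (BASP1 to STMN1), 3.42 (BASP1 to RTN3), 1.22 (BASP1 to RTN4) and 1.64 (RTN4 to STMN1); MARCKS to MARCKSL1 is not given, as under 2 fragments of MARCKSL1 were left.

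**Figure D3:**
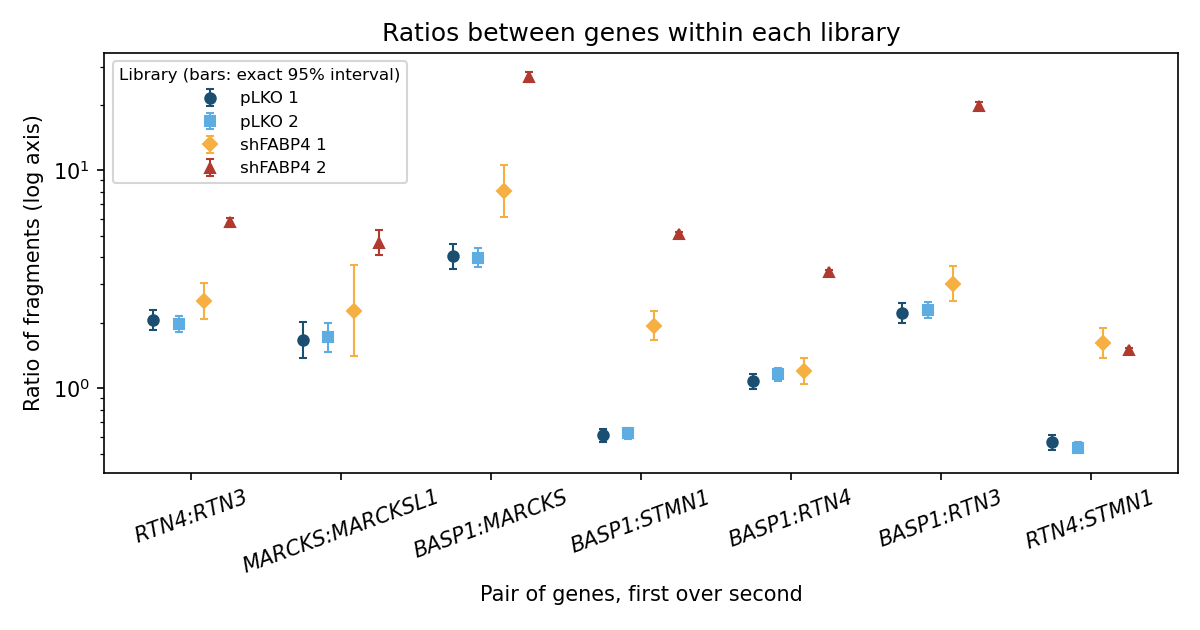
Ratio of fragments of 2 genes within each library (log axis) with exact 95% intervals for counting error. BASP1:STMN1 and RTN4:STMN1 were below 1 in both pLKO libraries and above 1 in both shFABP4 libraries. BASP1:RTN4 was 1.08 to 1.20 in 3 libraries and 3.42 in shFABP4 2. Fragments were not divided by exon length, so a ratio of 1 does not mark equal levels.

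Against the background expected in shFABP4 1, the genes fell into 2 kinds by their counting intervals. BASP1 had 489 fragments where 34.8 were expected, RTN4 407 against 33.5, STMN1 252 against 23.8, RTN3 162 against 29.2 and MARCKS 61 against 21.7, each beyond its 95% Poisson interval. MARCKSL1 had 27 against 25.1, GAP43 8 against 14.7, DPYSL2 68 against 77.7 and DPYSL3 73 against 76.4. For these 4 genes shFABP4 1 gives no level above background. The background rate is itself an average over genes of like GC content and carries no interval here. Single genes strayed from it to either side. OTX2, at 0 in the other libraries, had 38 fragments in shFABP4 1 where 17.1 were expected. ATOH1 and OLIG2, likewise at 0 elsewhere, had 5 against 23.6 and 44 against 52.9. The 2.82-fold excess of MARCKS thus does not set it firmly above background.

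**Figure D4:**
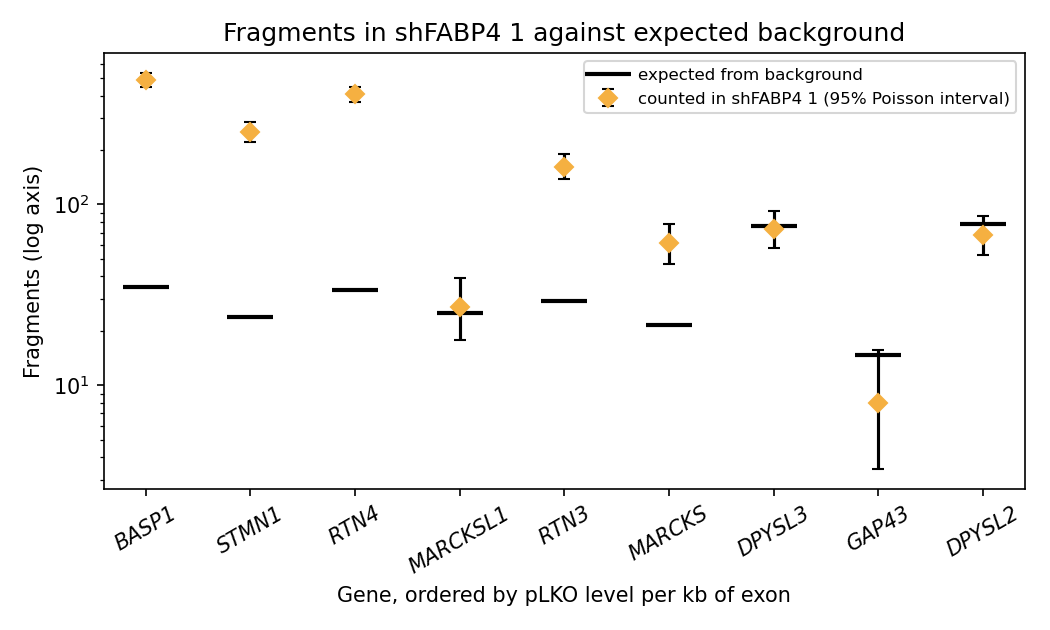
Fragments counted in shFABP4 1 (diamonds, 95% Poisson interval, log axis) beside the number expected from background (black bars) for each gene. BASP1, STMN1, RTN4, RTN3 and MARCKS lie above the bar and MARCKSL1, DPYSL3, GAP43 and DPYSL2 do not.

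The side of shFABP4 1 against pLKO turned with the scaling, while shFABP4 2 kept 7 genes above and 2 below (MARCKSL1 and DPYSL3) on each of the 4 scales used (FPKM has the same sides as CPM). By CPM shFABP4 1 was above both pLKO libraries for 6 genes and below for 3. Normalised with TMM (trimmed mean of M values) over all tested genes it was above for 2, below for 6 and between for 1. High-signal genes were 1037 coding genes expected to stand at least 5 times above the background of shFABP4 1, chosen from pLKO alone. Scaled on these, shFABP4 1 was above for all 9, and with background subtracted above for 5 and below for 4. The 4 below, GAP43, MARCKSL1, DPYSL2 and DPYSL3, were at background there. Shares of all genes were not counted for single libraries, so nothing is read from these counts about the 9 genes.

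On the all-gene scale, both shFABP4 libraries were above both pLKO libraries for 1 gene, DPYSL2 (28.5% of the 14735 tested genes did so), and below for 1, MARCKSL1 (26.1%). Both genes were at background in shFABP4 1, so that library gives no level for them. With high-signal scaling and background subtracted, both were above for 5 genes, BASP1, MARCKS, RTN3, RTN4 and STMN1 (44.8% of tested genes), and below for 2, MARCKSL1 and DPYSL3 (12.2%), whose counts in shFABP4 1 were likewise at background. On that last scale the multiples of the pLKO mean in shFABP4 1 and 2 were 6.23 and 15.9 for BASP1, 5.73 and 5.22 for RTN4, 4.10 and 1.82 for RTN3, 2.16 and 2.39 for MARCKS, and 1.93 and 1.92 for STMN1. MARCKSL1 stood at 0.865 in shFABP4 2. On this scale STMN1, MARCKS and RTN4 had close values in both shFABP4 libraries, whereas BASP1 and RTN3 differed between them. By CPM the former were apart in shFABP4 1 and 2, at 0.456 and 1.60 for STMN1 and 0.719 and 1.99 for MARCKS. RTN4 was at 1.34 and 4.35 by CPM. The closeness thus depends on the scaling and is not read as agreement of replicates. The shares are a background to these counts, and since the genes were chosen on this contrast nothing is read from them.

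**Figure D5:**
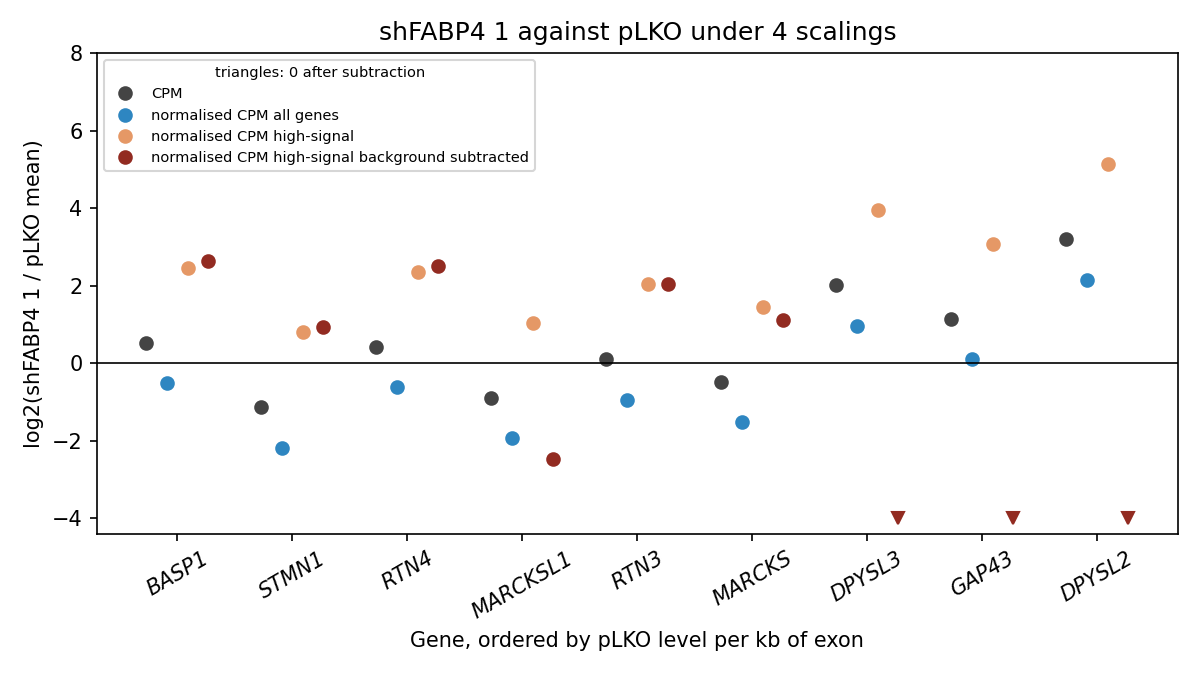
log2 ratio of shFABP4 1 to the pLKO mean for each gene under 4 scalings (colours), with triangles at the lower edge for genes at 0 once background was subtracted; MARCKSL1, DPYSL3, GAP43 and DPYSL2 were at background in this library. BASP1 and RTN4 were below 0 with all-gene scaling (-0.52 and -0.62) and above 0 with the other 3.

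With all 4 libraries in edgeR's quasi-likelihood test, 0 of 14735 genes passed an adjusted p of 0.05 (0%), so 0 of the 9 genes did. At an unadjusted p under 0.05 there were 1818 genes, DESeq2 called 695 and limma-voom 0. The log2 fold changes of shFABP4 over pLKO, with SE where given, were 2.57 (1.54) for BASP1, 1.63 (0.72) for DPYSL2, 1.11 (1.05) for RTN4, 0.71 for GAP43, 0.26 for DPYSL3, 0.02 for MARCKS, -0.15 for RTN3, -0.35 for STMN1 and -1.19 for MARCKSL1, against a median of 0.34 over all tested genes (1.30 when scaled to library totals). Without shFABP4 1, where the lone shFABP4 library is assumed to vary like pLKO, 34.2% of 15301 tested genes were called higher and 32.7% lower. The 9 genes fell among these as 7 and 2, a count that supports nothing because they were chosen on this contrast, with BASP1 at 3.49 and RTN4 at 1.88. Without shFABP4 2, BASP1 stood at -1.72 and RTN4 at -1.82, where the median over all tested genes was 2.22. With this all-gene scaling shFABP4 2 thus set the sign of each. By CPM shFABP4 1 was above pLKO for both, at 1.44-fold and 1.34-fold of its mean, so the sign there also turned with the scaling.

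Among the 1037 high-signal genes, 108 were called higher (10.4%) and 123 lower (11.9%). Of the 9 genes only STMN1 was in that set, with a log2 fold change of 0.88. Over the alternatives its value ranged from 0.04 with total-count scaling to 1.04 without shFABP4 1, and was 0.34 with a GC and length correction; it left the set with background by length only. BASP1 and RTN4 were expected at 4.44 and 4.12 times background, just under the multiple of 5. At a multiple of 2, where edgeR called 0 of 2124 genes (704 had an unadjusted p under 0.05), the log2 fold changes were 3.33 for BASP1, 2.18 for RTN4, 1.26 for RTN3 and 0.69 for STMN1. With upper-quartile scaling the split of the high-signal calls was 148 higher and 104 lower.

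Among related genes, drawn up as 6 lists of 71 genes with earlier results of these data known, 62 were tested with all 4 libraries and 0 passed. Without shFABP4 1, 27 of 63 were called higher and 26 lower, where 34.2% and 32.7% of all tested genes were, with a median log2 fold change of 0.11 against 0.04 over all genes. Of the 7 receptors and co-receptors for Nogo, 4 were tested and all 4 were called lower in that fit (32.7% of all tested genes were), among them RTN4R, the main Nogo receptor (15.4 and 18.3 CPM in pLKO, 57.5 in shFABP4 1, 11.5 in shFABP4 2), and RTN4RL1 (11.7, 12.7, 43.7 and 6.51 CPM). In shFABP4 1 these receptors had 146 and 111 fragments, where background predicts 59.01 and 68.2.

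The 16 genes that shape the endoplasmic reticulum split into 6 called higher and 7 lower without shFABP4 1, beside 34.2% and 32.7% of all tested genes. CKAP4, a membrane protein of reticulum sheets, was at 857 and 904 CPM in pLKO, 355 in shFABP4 1 and 2755 in shFABP4 2, and REEP4, which clears the reticulum from mitotic chromosomes, was at 78.5, 78.9, 46.1 and 49.8 CPM. Scaled on high-signal genes, shFABP4 1 instead lay above both pLKO libraries for both genes. CKAP4 was at 2122 there against 1340 and 1416, and REEP4 at 275 against 123 and 124. Background predicts 42.8 of the 117 REEP4 fragments of shFABP4 1. Of 12 genes for lipidation, protein kinase C and calmodulin, 7 were called higher and 5 lower in the same fit, beside the same shares of all genes. CALM2, which encodes calmodulin, was at 231 and 229 CPM in pLKO, 89.4 in shFABP4 1 and 238 in shFABP4 2. Scaled on high-signal genes, CALM2 was at 534 in shFABP4 1 against 361 and 358 in pLKO, so its side also turned.

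Of the 6 other members of the collapsin response mediator and stathmin families, 4 were tested without shFABP4 1, with 3 called higher and 1 lower (34.2% and 32.7% of all tested genes). STMN3 was at 98.5 and 91.8 CPM in pLKO, 108 in shFABP4 1 and 219 in shFABP4 2, and DPYSL4 at 71.0, 63.8, 135 and 39.8 CPM. Among 17 regulators of these families, 5 of 16 tested were called higher and 5 lower, close to the shares of 34.2% and 32.7% over all genes. CDK5, a kinase that phosphorylates DPYSL2, was at 156 and 155 CPM in pLKO against 59.5 and 56.7 in shFABP4, and GSK3A, another kinase of these proteins, at 109, 107, 123 and 97.1 CPM. Of 13 genes of the growth cone cytoskeleton and adhesion, 6 of 11 tested were called higher and 4 lower, beside those same shares. The actin bundler FSCN1 was at 391 and 397 CPM in pLKO, 77.2 in shFABP4 1 and 232 in shFABP4 2, and VASP, an actin polymerase of filopodia, at 170, 160, 67.3 and 29.7 CPM. Scaled on high-signal genes, VASP was at 402 in shFABP4 1 against 266 and 251 in pLKO. FSCN1 stayed below on that scale, at 461 in shFABP4 1 against 611 and 622. Background predicts 57.4 of the 171 VASP fragments of shFABP4 1.

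The high-signal genes whose levels over the 4 libraries lay nearest to BASP1 were ALDH1A1 (Euclidean distance 1.01 on log2 values less the pLKO mean), YWHAB (1.31), HNRNPDL (1.57), MYL12A (1.72) and SRP14 (1.73), of 1037 compared. Each was lower than BASP1 in shFABP4 2: ALDH1A1, the nearest, stood 2.996 above pLKO there and BASP1 4.004, on the log2 high-signal scale. RTN4 had nearer neighbours, with MYL12A at a distance of 0.18, then ATP5IF1 (0.48), EEF1A1 (0.52), ALDH1A1 (0.60) and HNRNPDL (0.65). On this scale both shFABP4 libraries were above pLKO for all of these, which follows from choosing them for nearness to BASP1 and RTN4. The side of shFABP4 1 depends on the scaling. With 4 libraries such distances describe the libraries and not shared control.

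Copies of these genes elsewhere in the genome drew few fragments. The 6 pseudogene names listed for BASP1, MARCKSL1, RTN3 and STMN1 held 0 to 10 fragments in any library, with 10 for BASP1P1 in shFABP4 1, where 12.6 were expected from background. RTN3P1 had 1, 1, 3 and 8 fragments.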

How the data were processed

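RNA was measured in 2 pLKO and 2 shFABP4 libraries of Daoy cells, grouped by the sample labels. TRIzol extraction, bead capture of mRNA and Tn5 fragmentation were used, per the labels' protocols. The deposited values are unnormalised counts that the authors obtained with featureCounts v2.0.0, which summed fragments over GENCODE 38 exons by name without a strand option, per the file headers. The submitters' processing notes list FastQC, HISAT, StringTie and GRCh38. Exon lengths came from the same table. ANK2, whose row was split over 7 lines, was not used here.

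The 9 genes, the lists and the tests were chosen with earlier results of these data known. The test was that of edgeR 4.0.16 (R 4.3.3; TMM, filterByExpr with a minimum count of 10 and a total of 15, robust quasi-likelihood test, two-sided, Benjamini-Hochberg, threshold 0.05). DESeq2 1.42.0 and limma 3.58.1 were alternatives. An exact permutation test of 2 libraries against 2 could not reach the threshold. Background in shFABP4 1 was estimated in 6 bins of GC content, with GC and gene types from GENCODE 29, which gave a GC value to 91.5% of the genes averaging 20 counts or more; high-signal genes were refitted with their own TMM scaling. Background left 45.4% of shFABP4 1 for RNA. High-signal genes held 15.3% of all fragments of shFABP4 1, against 58.4% to 63.6% of those of the other libraries. With RNA at 45.4% and their share within RNA as elsewhere, they would hold more than 15.3%. The RNA share, and the multiples of background built on it, may thus be too high, and the reason for the gap was not tested. CPM are counts over the library total.

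Named genes were all 9, the list genes called among high-signal genes (up to 4 a list), the 2 with the highest pLKO level per kb in each list, and the 5 high-signal genes nearest to BASP1 and to RTN4. An item that this rule names is not reported here. Other alternatives were other scalings, no filter, other multiples and background rates, background subtraction, the replicate number as a block and each library left out.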

Additional observations from a re-analysis of the deposited data

How the results depend on the processing

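Over all genes, the count called was 0 with edgeR and became 69 with no low-count filter, 695 with DESeq2 and 28 with the replicate number as a block. Leaving out 1 library gave 0 to 23895 calls: 10242 without shFABP4 1, 23895 without shFABP4 2 and 0 without pLKO 1 or pLKO 2 (157 and 175 at an unadjusted p under 0.05). Among high-signal genes the count of 231 became 0 with a multiple of 2 and with background by length only (704 and 399 at an unadjusted p under 0.05), 2 with total-count scaling, 367 with DESeq2 and 373 with the set chosen from pLKO and shFABP4 2. Leaving out 1 library gave 0 to 945: 0 without pLKO 1 or pLKO 2 (157 and 153 unadjusted), 945 without shFABP4 1 and 772 without shFABP4 2. The replicate block gave 338. The replicate numbers were not taken as pairing the samples. Deviations of same-numbered libraries correlated at r = 0.0109 across genes. This value cannot decide on a pairing, since the deviations within shFABP4 hold the background of shFABP4 1. CALM2 turned from a log2 fold change of 0.45 among high-signal genes to -0.49 with total-count scaling and -0.089 with the GC and length correction. The causes were not tested.

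Of 11 alternatives over all genes, BASP1, RTN4 and GAP43 kept their sign in 10, MARCKSL1 and DPYSL2 in 11, STMN1 in 9, RTN3 in 8, DPYSL3 in 4 and MARCKS in 3. In shFABP4 1, GAP43, MARCKSL1, DPYSL2 and DPYSL3 gave no level above background.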
